A study of Homo sapiens with 9 samples.

Results

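Transcripts of 10 canonical Wnt and β-catenin target genes (AXIN2, LGR5, NKD1, RNF43, ZNRF3, ASCL2, TCF7, LEF1, SP5 and APCDD1) were followed in HCT116 cells that overexpressed the long noncoding RNA CRLM1. Each member was matched by gene symbol alone, though the list was chosen with earlier results of these data known. Of the 10, 8 had an entry among the 31558 genes of the count table. The levels of ASCL2 and APCDD1 were not analysed here. AXIN2 and NKD1 were higher in the CRLM1-OE cells than in both controls, TCF7 was lower than in both, and SP5 was higher than in the free plasmid control alone. RNF43 and ZNRF3 differed from the controls by between -0.19 and 0.11 log2 units, while LEF1 and LGR5 were at the limit of detection in every sample.

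HCT116 is a human colorectal cancer (CRC) cell line that carries a stabilising mutation of β-catenin on a background of intact APC. Polyadenylated RNA of 9 samples was sequenced, 3 biological replicates in each of 3 groups. The CRLM1-OE group carried the CRLM1 cDNA in a pTSB lentiviral plasmid, Ctrl carried the free plasmid, and Anti carried the CRLM1 antisense sequence. Whether Anti is in the same plasmid, and whether the sequenced cells were drug-selected lines, is not given in the sources used here. Total counts per sample ranged from 33302292 to 44514692 (median 37546884), and the limit of detection was set at 3 counts. On a scale of counts adjusted to library size (CPM) this limit lies from 0.0674 in the deepest sample to 0.0901 in the shallowest. This limit covers counting error only.

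In canonical Wnt signaling, a Wnt ligand binds a Frizzled receptor and an LRP co-receptor, and the cytoplasmic destruction complex (AXIN, APC, GSK3 and casein kinase) stops marking β-catenin for degradation. β-catenin then enters the nucleus and acts with DNA-binding factors of the TCF/LEF family. Many of the genes it activates are themselves brakes on the pathway, among them AXIN2, NKD1, RNF43, ZNRF3 and APCDD1, so their transcripts are widely read as a gauge of pathway output. LGR5 and ASCL2 mark intestinal stem cells, and most CRCs carry a mutation that keeps the pathway active.

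CRLM1 itself, listed as RP4-710M16.2, was present in the cells meant to overexpress it, at 32751 to 38704 counts, and had no count in Ctrl. In Anti it had 1540 to 1951 counts. Whether reads were assigned by strand is not given in the sources used here, so sense and antisense transcripts cannot be told apart in Anti. Of 11 epithelial markers listed for the line, 7 had a mean count of at least 20. EPCAM, 1 of these, was at 163 ± 4.46 CPM (SD, n = 3) in CRLM1-OE and 209 ± 2.32 CPM (SD, n = 3) in Ctrl. EPCAM, KRT8, KRT18 and KRT19 were lower in CRLM1-OE than in Ctrl, and no marker was higher. Against Anti, KRT19 was higher and 5 markers were lower. The leukocyte marker PTPRC had at most 2 counts in any sample and the fibroblast marker COL1A2 at most 1. The summed level of the 4 measured leukocyte markers was 4.15 to 4.62 CPM in CRLM1-OE, 3.59 to 3.92 CPM in the Ctrl samples and 2.97 to 3.53 CPM in Anti, and of these CD68 was higher in CRLM1-OE than in Anti. The summed level of the 6 measured fibroblast markers was 16 to 19.2 CPM in CRLM1-OE, 8.99 to 9.61 CPM in Ctrl and 9.70 to 10.8 CPM in Anti, and COL1A1 was the only one with a mean count of at least 20. The 3 endothelial markers summed to 0.475 to 1.05 CPM in CRLM1-OE. Their sum was 0.303 to 0.429 CPM in Ctrl and 0.285 to 0.499 CPM in Anti. None of them had a mean count of at least 20, and none passed the test in any comparison. The part of these cells or genes in the results was not tested.

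TCF/LEF factors bind DNA through a short core. Of the member windows searched, the ones printed are those that held a match, from SP5 and the downstream start of TCF7. SP5 was higher than in Ctrl, and TCF7 was lower than in both controls. Windows of 250 bases before to 50 bases after annotated starts (RefSeq, GRCh38.p14, 300 bases each) were searched on both strands for 4 forms of the core, CTTTGAT (found in 2.62% of all 35116 windows), CTTTGAA (in 4.43%), CTTTGTT (in 5.2%) and CTTTGTA (in 2.77%). Matches are in capitals, and a match on the reverse strand appears as its reverse complement. The SP5 window (chr2:170715087-170715386, forward strand) held 3 matches that do not overlap, beginning 148, 109 and 84 bases before the start, and the window of the downstream TCF7 start (chr5:134123368-134123667, forward strand) held 1, beginning 50 bases before it.
SP5: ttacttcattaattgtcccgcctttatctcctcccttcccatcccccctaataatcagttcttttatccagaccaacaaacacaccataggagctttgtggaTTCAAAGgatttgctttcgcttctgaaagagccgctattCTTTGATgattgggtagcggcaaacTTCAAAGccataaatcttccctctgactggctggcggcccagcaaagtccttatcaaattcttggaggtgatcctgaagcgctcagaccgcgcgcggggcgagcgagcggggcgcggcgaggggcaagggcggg
TCF7: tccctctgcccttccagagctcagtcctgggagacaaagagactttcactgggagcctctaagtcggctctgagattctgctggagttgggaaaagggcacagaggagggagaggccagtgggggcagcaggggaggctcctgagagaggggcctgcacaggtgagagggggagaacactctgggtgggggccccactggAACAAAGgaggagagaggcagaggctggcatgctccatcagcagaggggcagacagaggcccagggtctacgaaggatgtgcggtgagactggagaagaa
Of all windows, 13.8% held at least 1 of these forms and 0.179% held at least 3 matches. The cut at 3 equals the number found in the SP5 window itself, so this last share is no test of that window. The windows of the upstream TCF7 start, RNF43, LEF1 and APCDD1 held none of these letters. A match is a string of letters and no measurement of binding. AXIN2, NKD1, ZNRF3, LGR5 and ASCL2 were not analysed here for sequence.

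The feedback inhibitor AXIN2 (ENSG00000168646.12, reverse strand, chr17:65528563-65561648 of GRCh38) encodes a scaffold of the destruction complex. Its counts were 210, 164 and 169 in CRLM1-OE, 88, 63 and 69 in Ctrl and 84, 67 and 73 in Anti. Scaled to library size by edgeR's TMM factors, these are 4.79, 4.68 and 4.26 CPM in CRLM1-OE, 2.08, 1.84 and 2.07 CPM in Ctrl and 2.07, 1.78 and 2.08 CPM in Anti. Every CRLM1-OE sample was above every control sample, and the controls overlapped each other. AXIN2 was 2.29-fold higher than in Ctrl (log2 fold change 1.20, 95% interval 0.92 to 1.47, edgeR adjusted p = 4.7e-16) and 2.32-fold higher than in Anti (log2 fold change 1.21, 95% interval 0.94 to 1.49, edgeR adjusted p = 4.8e-17). Anti differed from Ctrl by -0.04 on the log2 scale (95% interval -0.38 to 0.30, edgeR adjusted p = 0.91).

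NKD1 (ENSG00000140807.5, forward strand, chr16:50548396-50649249), which binds Dishevelled and dampens the signal downstream of the receptor, followed AXIN2. It had 658, 486 and 574 counts in CRLM1-OE against 323, 250 and 294 in Ctrl and 296, 249 and 252 in Anti. The corresponding levels were 14.4 ± 0.57 CPM in CRLM1-OE, 7.91 ± 0.798 CPM in Ctrl and 7.04 ± 0.358 CPM in Anti (SD, n = 3 each), with no overlap between CRLM1-OE and either control. NKD1 was 1.83-fold higher than in Ctrl (log2 fold change 0.87, 95% interval 0.72 to 1.03, edgeR adjusted p = 1.4e-26) and 2.06-fold higher than in Anti (log2 fold change 1.04, 95% interval 0.88 to 1.20, edgeR adjusted p = 1e-36). The controls did not differ past the threshold (log2 fold change -0.19, 95% interval -0.38 to 0.00, edgeR adjusted p = 0.15). All 4 intervals of AXIN2 and NKD1 against the controls include a log2 fold change of 1, so these data do not place either gene on one side of a 2-fold change.

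RNF43 and ZNRF3 are membrane ubiquitin ligases that clear Frizzled receptors from the cell surface. RNF43 (ENSG00000108375.12, reverse strand, chr17:58353676-58417595) stood at 35.0, 33.2 and 32.9 CPM in CRLM1-OE, 34.2, 32.7 and 31.4 CPM in Ctrl and 38.6, 37.0 and 39.8 CPM in Anti. The Anti samples were the highest for this gene, and CRLM1-OE and Ctrl overlapped. RNF43 was lower in CRLM1-OE than in Anti by a small margin (log2 fold change -0.19, 95% interval -0.27 to -0.10, edgeR adjusted p = 0.00013), and the difference from Ctrl was 0.04 (95% interval -0.05 to 0.13, edgeR adjusted p = 0.57). Anti was above Ctrl by 0.20 (95% interval 0.11 to 0.29, edgeR adjusted p = 0.00011).

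ZNRF3 (ENSG00000183579.15, forward strand, chr22:28883572-29057488) was likewise highest in Anti. Its counts were 765, 605 and 715 in CRLM1-OE, 682, 547 and 559 in Ctrl and 734, 733 and 700 in Anti, which scale to 17.6 ± 0.409, 16.3 ± 0.425 and 19.2 ± 0.94 CPM (SD, n = 3 each). On the CPM scale no sample of one group fell within the range of another. The difference of CRLM1-OE from Ctrl was 0.11 (95% interval -0.01 to 0.24, edgeR adjusted p = 0.20) and from Anti -0.12 (95% interval -0.24 to 0.00, edgeR adjusted p = 0.13). Anti was above Ctrl by 0.21 (95% interval 0.08 to 0.34, edgeR adjusted p = 0.0062). Whether RNF43 and ZNRF3 passed against Ctrl depended on the processing: without TMM factors, the differences from Ctrl were 0.18 (edgeR adjusted p = 0.00075) for RNF43 and 0.25 (edgeR adjusted p = 0.00044) for ZNRF3, and ZNRF3 also passed with at least 10 counts in every sample (0.14, edgeR adjusted p = 0.046) and with limma (0.22, adjusted p = 0.021, and 0.16, adjusted p = 0.026). Over their alternatives the adjusted p ranged from 0.00075 to 0.91 and from 0.00044 to 0.40.

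The receptor LGR5 (ENSG00000139292.12, forward strand, chr12:71439798-71586310), which binds R-spondins, had 1 count in 1 Ctrl sample and 0 in the other 8 samples. A count of 0 allows up to 3 counts per library, that is 0.0674 to 0.0901 CPM, so LGR5 was not detectable at this depth and no fold change is given.

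Among the DNA-binding members, TCF7 (ENSG00000081059.19, forward strand, chr5:134114681-134151865) encodes TCF1, a TCF/LEF factor with long forms that bind β-catenin and short forms that lack the binding domain. Its level was 16.7, 17.1 and 16.8 CPM in CRLM1-OE, 26.7, 26.4 and 22.4 CPM in Ctrl and 25.8, 26.3 and 29.0 CPM in Anti. The CRLM1-OE samples were the lowest and the closest together, with an SD of 0.23 CPM against 2.43 CPM in Ctrl and 1.70 CPM in Anti. TCF7 was lower in CRLM1-OE than in Ctrl (log2 fold change -0.58, 95% interval -0.70 to -0.47, edgeR adjusted p = 1.5e-21) and than in Anti (log2 fold change -0.68, 95% interval -0.79 to -0.56, edgeR adjusted p = 6.3e-31). The controls differed by 0.07 (95% interval -0.03 to 0.18, edgeR adjusted p = 0.45). SKP1, transcribed from the opposite strand, shares 210 exon bases with TCF7 in GENCODE version 44, which is 2.08% of the exon bases of TCF7, and differed from Ctrl by -0.20 and from Anti by -0.22 (log2). Its part in the TCF7 counts was not tested.

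SP5 (ENSG00000204335.3, forward strand, chr2:170715337-170718078), a zinc-finger factor induced directly by Wnt signaling, was expressed weakly. Its counts were 67, 40 and 61 in CRLM1-OE, 30, 19 and 36 in Ctrl and 40, 46 and 29 in Anti. The CRLM1-OE samples exceeded every Ctrl sample but overlapped with Anti, where 1 sample reached 1.22 CPM and the lowest CRLM1-OE sample 1.14 CPM. SP5 was 1.82-fold higher than in Ctrl (log2 fold change 0.86, 95% interval 0.41 to 1.32, edgeR adjusted p = 0.0009), while the difference from Anti was 0.48 (95% interval 0.05 to 0.90, edgeR adjusted p = 0.072). The difference of Anti from Ctrl was 0.36 (95% interval -0.14 to 0.86, edgeR adjusted p = 0.38), so the fold changes against the controls are not shown to differ from each other. LEF1 (ENSG00000138795.9, reverse strand, chr4:108047545-108168956), the other TCF/LEF factor among the members, had 0, 2 and 2 counts in CRLM1-OE, 0, 1 and 1 in Ctrl and 1, 0 and 0 in Anti, all under the limit of detection, and no fold change is given.

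**Figure D1:**
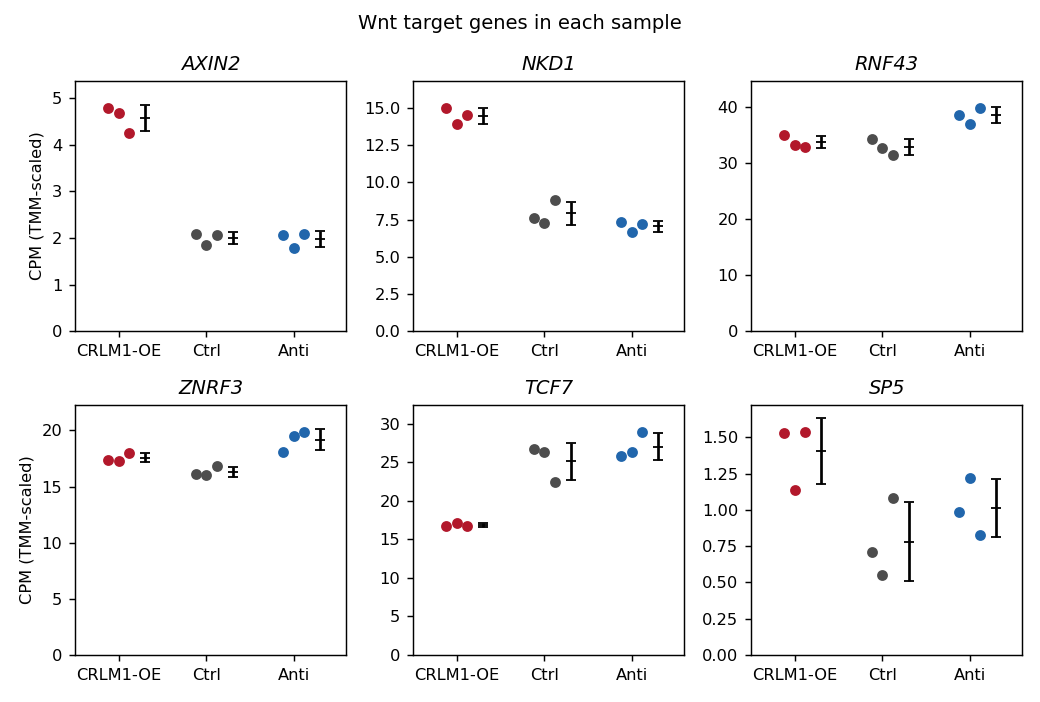
TMM-scaled CPM (vertical axes, each from 0) of the 6 Wnt target genes above the limit of detection. Points are the 3 samples of CRLM1-OE, Ctrl and Anti, and the bar beside them is the mean ± SD. AXIN2 and NKD1 sit higher in CRLM1-OE than in both controls, TCF7 sits lower, and RNF43 and ZNRF3 are highest in Anti.

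Levels can be compared between genes per exon length, on the FPKM scale of the authors. In Ctrl, TCF7 was the highest member at 5.17 ± 0.504 FPKM, followed by RNF43 at 3.76 ± 0.167 FPKM and ZNRF3 at 1.97 ± 0.0557 FPKM (SD, n = 3 each). NKD1 at 0.777 ± 0.0833 FPKM, AXIN2 at 0.363 ± 0.0289 FPKM and SP5 at 0.327 ± 0.112 FPKM were the lower 3, and AXIN2 and SP5 did not differ beyond their spread. In CRLM1-OE the order of the highest pair was exchanged, with RNF43 at 4.19 ± 0.152 FPKM above TCF7 at 3.74 ± 0.0757 FPKM. AXIN2 in CRLM1-OE reached 0.907 ± 0.0586 FPKM, and NKD1 reached 1.54 ± 0.0557 FPKM. The members with the largest fold changes were thus among the least abundant, and the difference in CPM was largest for TCF7, at 16.9 in CRLM1-OE against 25.2 in Ctrl and 27.0 in Anti.

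**Figure D2:**
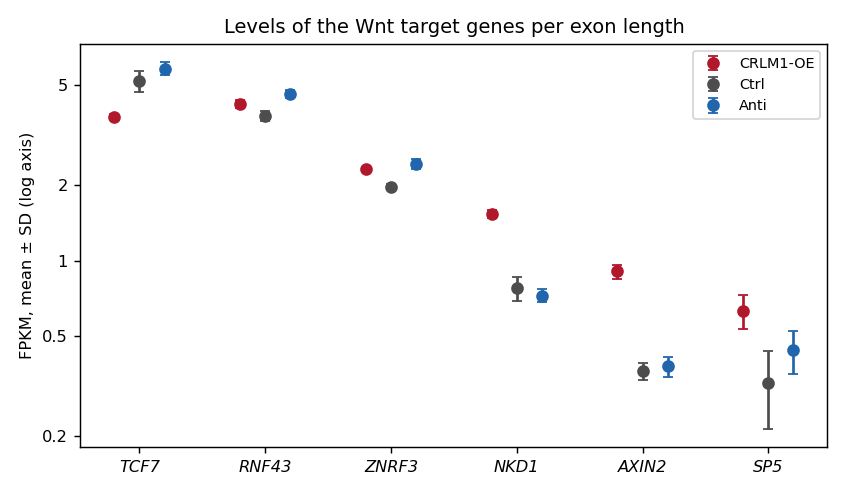
FPKM of the 6 detected Wnt target genes (log axis), in order of their level in Ctrl. Points are the means of 3 samples of CRLM1-OE, Ctrl and Anti and bars are 1 SD, with TCF7 and RNF43 highest and AXIN2 and SP5 lowest in both controls.

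Counted over the members at an adjusted p of at most 0.05, CRLM1-OE exceeded Ctrl in 3 and lay under it in 1, and exceeded Anti in 2 and lay under it in 2. Anti differed from Ctrl in 2 members, both higher. Small differences passed the test widely in these data, so these counts need the background. Among all genes tested, 15% were higher and 16.8% lower against Ctrl, 17.1% higher and 18.5% lower against Anti, and 11.5% higher and 12.2% lower for Anti against Ctrl. Among genes averaging at least 20 counts, which include the 6 detected members, the corresponding shares were 27.9% and 33.5%, 32% and 36.1%, and 22.6% and 24.5%. Against Ctrl, 3 of these 6 members were higher, beside 27.9% of genes, and 1 was lower, beside 33.5%. With 6 members such shares are coarse, and their difference from the background was not tested. Against Anti, 2 of 6 in each direction is near the background.

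A fold change of at least 2 in addition, the threshold of the study, was met by AXIN2 against Ctrl and by AXIN2 and NKD1 against Anti, and by no member between the controls with edgeR, DESeq2 or limma (3 members had an unadjusted edgeR p under 0.05, NKD1 lower at 0.045 and RNF43 and ZNRF3 higher). Such calls were rare: 3.41% of all genes tested (3.53% of those averaging at least 20 counts) against Ctrl, 5.65% (6.77%) against Anti and 1.06% (0.658%) between the controls. The median log2 fold change of the 6 members was 0.49 against Ctrl, 0.18 against Anti and 0.14 between the controls, where the median of all genes averaging at least 20 counts was -0.03, -0.02 and 0.00. Without TMM factors that median moved to 0.12 against Ctrl, 0.04 against Anti and 0.11 between the controls, and the share of higher genes among those passing went from 45.5% to 68.3%, from 47% to 54.4% and from 47.9% to 73%. AXIN2, NKD1 and TCF7 kept their directions against both controls under TMM factors, RLE factors and total counts.

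**Figure D3:**
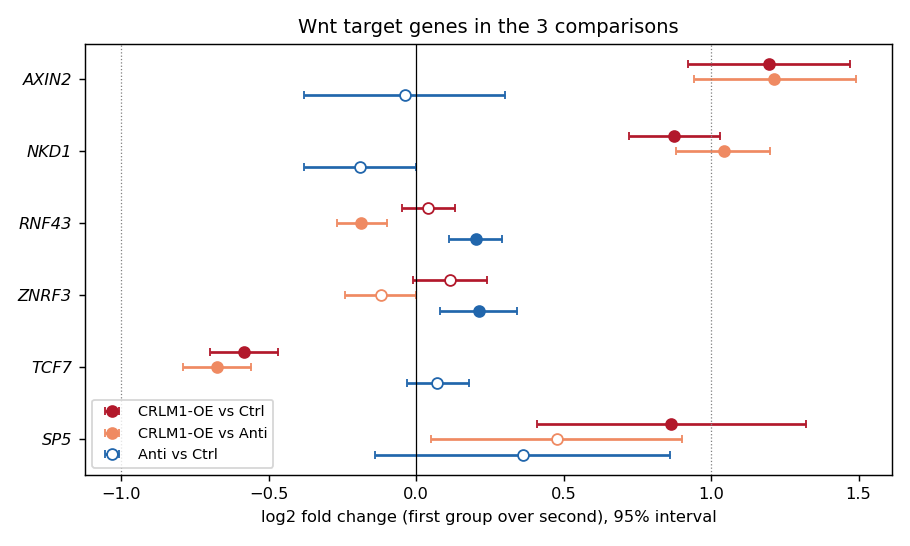
Log2 fold change (horizontal axis) with its 95% interval for the 6 detected Wnt target genes in the 3 comparisons. Filled points have an edgeR adjusted p of at most 0.05, open points do not, and dotted lines mark 2-fold. AXIN2 and NKD1 lie near the upper dotted line and TCF7 between -0.68 and -0.58 against both controls.

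In edgeR's test the gene-wise spread was drawn fully to the trend over all genes, so these p-values use the trend and not the 3 replicates of each gene. Over all alternatives, among them DESeq2 and limma, the adjusted p of AXIN2 was at most 0.00079, that of NKD1 at most 0.00097 and that of TCF7 at most 0.0058 against either control, and that of SP5 against Ctrl at most 0.042. With 3 samples a side, the smallest two-sided p that an exact permutation test of a single gene allows is 0.1.

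The members moved along different lines over the 9 samples. As a measure of likeness, the log2 CPM of each gene was centred on its own mean, and the root mean square difference between genes was taken. RNF43 and ZNRF3 were the closest pair of members (0.0745 log2 units), followed by AXIN2 and NKD1 (0.145), whereas AXIN2 and TCF7 were the farthest apart (0.863). The measure is also small where both genes vary little, as RNF43 and ZNRF3 did, so a small value need not mean shared movement. Among 11701 genes averaging at least 100 counts, those close to AXIN2, the member with the widest range of group means (1.19 log2 units), included PAN2 (0.0766) and TLE1 (0.0866). PAN2, a subunit of a poly(A) nuclease, rose by 1.24 and 1.18 log2 units against Ctrl and Anti.

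The other genes of the pathway were followed on 8 lists of 99 genes, of which 91 were tested in each comparison. Of these, 34 were higher and 20 lower against Ctrl, and 36 higher and 19 lower against Anti, while Anti was higher than Ctrl for 13 and lower for 22. Among all genes tested the shares were 15% higher and 16.8% lower against Ctrl, 17.1% and 18.5% against Anti and 11.5% and 12.2% between the controls, and among genes averaging at least 20 counts, as 72 or 73 of the 91 did, 27.9% and 33.5%, 32% and 36.1%, and 22.6% and 24.5%. The counts by role that follow are to be read against these shares. Without TMM factors the numbers were 44 and 16, 41 and 17, and 26 and 11. Genes passed in both directions on most lists. Both comparisons use the same CRLM1-OE samples, so their values are given side by side and are not independent.

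Of 18 tested Wnt ligand genes, 5 were higher and 3 lower than in Ctrl, and 4 were higher and 2 lower than in Anti. WNT4 rose from 3.40 ± 0.331 CPM in Ctrl and 2.70 ± 0.296 CPM in Anti to 6.42 ± 0.309 CPM (SD, n = 3 each), by 0.92 and 1.25 on the log2 scale. WNT7B, the most abundant of those named here, rose by 0.48 and 0.77. WNT11, commonly assigned to β-catenin-independent signaling, rose by 1.45 and 1.02 but from 0.598 CPM in Ctrl. WNT5B, of the same kind, rose by 1.73 and 1.56 at 4 to 28 counts per sample in CRLM1-OE and Ctrl. For WNT5B the lowest CRLM1-OE sample (0.319 CPM) overlapped with the highest Anti sample (0.321 CPM), and limma did not make the call against Anti (adjusted p = 0.07 and 0.077). WNT6 rose against Ctrl (0.53), with 0.32 against Anti (edgeR adjusted p = 0.073). WNT10B fell against both, with log2 fold changes of -0.52 and -0.86. WLS, which carries Wnt proteins to the cell surface, fell from 70.1 ± 3.15 CPM in Ctrl and 58.8 ± 0.573 CPM in Anti to 41.4 ± 1.79 CPM (log2 fold changes -0.76 and -0.51). PORCN, the acyltransferase that lipidates Wnt proteins, was higher than in Anti (0.17) with -0.01 against Ctrl (edgeR adjusted p = 0.93). The PORCN call was lost without CRLM1-OE replicate 1 (0.14, edgeR adjusted p = 0.15) or Anti replicate 3 (0.16, edgeR adjusted p = 0.061), and WNT6 passed against Anti without TMM factors (0.37, edgeR adjusted p = 0.027), with at least 10 counts in every sample (0.33, edgeR adjusted p = 0.049) and without CRLM1-OE replicate 2 (0.37, edgeR adjusted p = 0.048) or Anti replicate 1 (0.45, edgeR adjusted p = 0.018). RSPO4, an R-spondin that amplifies Wnt signals through LGR receptors, fell by a log2 fold change of -1.08 and -1.31, at 16 to 20 counts in CRLM1-OE, with adjusted p = 0.057 against Ctrl for RSPO4 by limma on log2(FPKM + 0.1).

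Of 16 tested receptor genes, 8 were higher and 2 lower than in Ctrl, and 5 were higher and 3 lower than in Anti. LGR4, the R-spondin receptor related to LGR5, was at 6.97 ± 0.453 CPM in CRLM1-OE, 3.68 ± 0.328 CPM in Ctrl and 3.49 ± 0.277 CPM in Anti (SD, n = 3 each), with no overlap. Its log2 fold change was 0.93 against Ctrl (edgeR adjusted p = 1.4e-15) and 1.01 against Anti (edgeR adjusted p = 2.1e-18). The Frizzled receptors FZD1 and FZD4 also rose, FZD1 by 0.86 and 0.62 and FZD4 by 0.91 and 0.55. FZD6, by contrast, fell, with log2 fold changes of -0.39 and -0.83. FZD8 rose against Ctrl (1.83) on 7 to 17 counts per CRLM1-OE sample, and its difference from Anti was 0.74 (edgeR adjusted p = 0.31). The FZD8 call against Ctrl rested on single libraries, with 1.17 (edgeR adjusted p = 0.36) without CRLM1-OE replicate 2 and 1.33 (edgeR adjusted p = 0.12) without Ctrl replicate 3, and it was not made by DESeq2 (adjusted p = 0.074) or limma (adjusted p = 0.13 and 0.16).

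Extracellular inhibitors and their receptors went both ways, with 4 higher and 2 lower in each comparison of CRLM1-OE, of 10 tested against Ctrl and 11 against Anti. DKK1, which blocks the LRP co-receptor, was abundant and fell from 208 ± 4.43 CPM in Ctrl and 173 ± 1.69 CPM in Anti to 125 ± 3.42 CPM (log2 fold changes -0.74 and -0.46). NOTUM, a secreted enzyme that removes the lipid from Wnt proteins, fell by a log2 fold change of -0.42 and -0.24, the latter with adjusted p = 0.12 by edgeR without CRLM1-OE replicate 3, 0.075 without Anti replicate 3 and 0.057 by DESeq2. KREMEN1 and KREMEN2, membrane receptors for DKK proteins, rose, KREMEN1 by 0.40 and 0.78 and KREMEN2 by 0.62 and 0.66. FRZB and DKK3 rose by 1.93 and 2.06 and by 1.51 and 1.61, both at no more than 32 counts in any sample.

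In the cytoplasm, 5 of 13 genes of the Dishevelled and destruction complex list were higher and 3 lower than in Ctrl, and 7 were higher and 3 lower than in Anti, all by less than 2-fold. AXIN1, the constitutive counterpart of AXIN2, rose by 0.38 and 0.15, the latter with 0.099 (edgeR adjusted p = 0.12) without CRLM1-OE replicate 2. GSK3B rose by 0.15 and 0.37 and GSK3A fell by a log2 fold change of -0.24 and -0.20. APC did not pass the test (-0.13 against Ctrl, edgeR adjusted p = 0.32, and -0.16 against Anti, edgeR adjusted p = 0.19). DVL3, a Dishevelled protein, fell (-0.26 and -0.11), the latter not past the threshold without TMM factors (-0.05, edgeR adjusted p = 0.17). The kinase CSNK1D and the ubiquitin ligase subunit BTRC rose against Anti (0.23 and 0.26), with 0.00 and 0.06 against Ctrl (edgeR adjusted p = 0.97 and 0.44). Without TMM factors both passed against Ctrl, CSNK1D at 0.14 (edgeR adjusted p = 5.5e-08) and BTRC at 0.20 (edgeR adjusted p = 0.00018), as they did with limma.

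In the nucleus, 5 of 12 tested genes were higher and 2 lower than in Ctrl, and 8 were higher and 2 lower than in Anti. CTNNB1, which encodes β-catenin, was at 222 ± 1.00 CPM in CRLM1-OE, 170 ± 5.64 CPM in Ctrl and 182 ± 4.63 CPM in Anti, and rose by 0.39 and 0.29. Its co-activators BCL9 and BCL9L rose by 0.53 and 0.38 and by 0.66 and 0.28. The largest change on this list was in the co-repressor TLE1, which binds TCF/LEF factors when β-catenin is absent. TLE1 went from 42.4 ± 2.07 CPM in Ctrl and 37.5 to 43.8 CPM in Anti to 97.7 ± 4.21 CPM (log2 fold changes 1.21 and 1.29, edgeR adjusted p = 1.8e-235 and 1.2e-297), and it was among the 3 genes with a profile closest to AXIN2. TCF7L2, the main TCF factor of the intestinal epithelium, was at 57.1 ± 1.18 CPM in CRLM1-OE, 56.5 ± 1.21 CPM in Ctrl and 57.0 ± 1.90 CPM in Anti (edgeR adjusted p = 0.76 and 0.87), but TCF7L2 was higher than in Ctrl without TMM factors (0.16, edgeR adjusted p = 0.00016) and with limma (0.13 and 0.12). TCF7L1 rose against Anti (0.38), with -0.09 against Ctrl (edgeR adjusted p = 0.23). PYGO2, a co-activator that binds BCL9 proteins, fell (-0.16 and -0.46), but its difference from Ctrl was -0.02 (edgeR adjusted p = 0.79) without TMM factors and -0.11 (edgeR adjusted p = 0.13) without Ctrl replicate 1.

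Of 20 further genes commonly listed as Wnt targets, 7 were higher and 8 lower than in Ctrl, and 7 were higher and 7 lower than in Anti, of 20 and 19 tested. MYC, the best known of them, fell slightly, from 539 ± 6.38 CPM in Ctrl and 556 ± 8.21 CPM in Anti to 465 ± 9.52 CPM (log2 fold changes -0.21 and -0.25). CCND1, a cyclin of the entry into the cell cycle, fell by a log2 fold change of -0.18 and -0.36, with -0.04 against Ctrl (edgeR adjusted p = 0.18) without TMM factors. PROM1, an apical membrane glycoprotein, fell (-1.05 and -1.19), as did the matrix metalloprotease MMP7 (-1.12 and -1.54) and the ion cotransporter SLC12A2 (-0.74 and -1.02). EPHB3, an ephrin receptor of the intestinal crypt, rose by 0.78 and 0.96. NKD2, the paralog of NKD1 and chosen after its values were seen, rose by 0.40 and 0.73. The median over the list was -0.04 against Ctrl and 0.09 against Anti, close to the median of all genes.

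**Figure D4:**
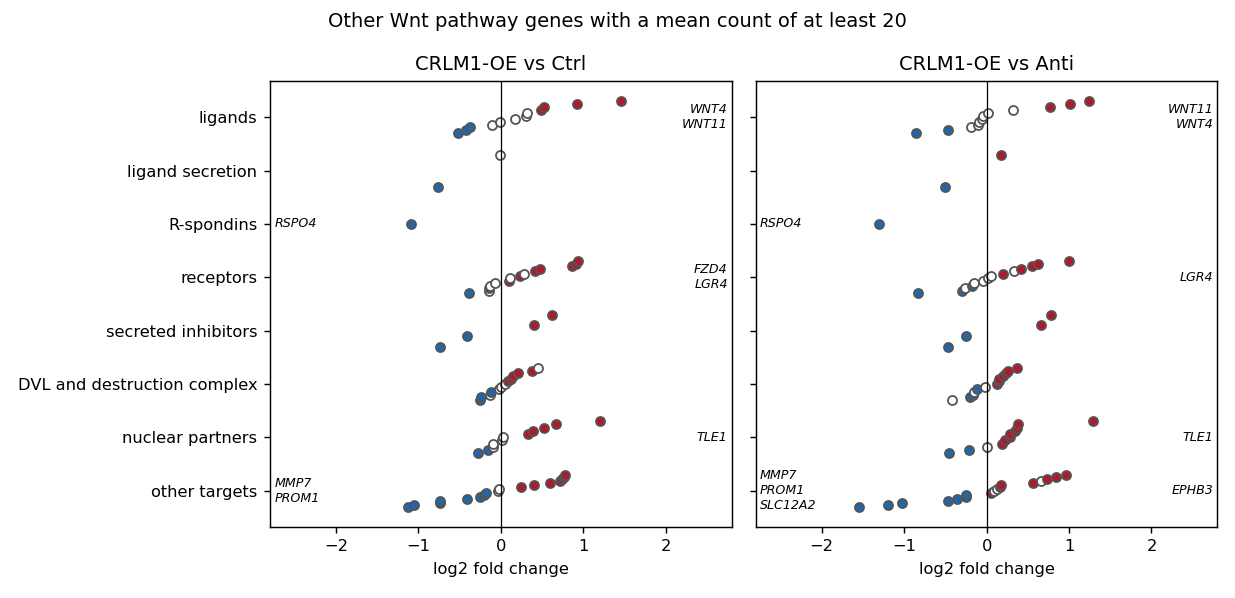
Log2 fold change of CRLM1-OE against Ctrl (left) and Anti (right) for the other Wnt pathway genes averaging at least 20 counts over the 9 samples, 1 point per gene, by role. Filled points have an edgeR adjusted p of at most 0.05 (red higher, blue lower), open points do not, and genes that pass at 0.9 log2 units or more are named at the edges. Filled points lie on both sides of 0 on most lists, with WNT11, TLE1, WNT4 and LGR4 far to the right and MMP7, PROM1 and RSPO4 far to the left.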

How the data were processed

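Polyadenylated RNA of 9 HCT116 samples (3 per group, groups taken from the sample labels) was sequenced by the authors as 151 nt paired ends. The authors trimmed reads with the FASTX-Toolkit, dropped those under 16 nt, aligned them to GRCh38 and Gencode version 23 with TopHat2, allowing 4 mismatches, and deposited raw counts of uniquely mapped reads per gene. The authors also deposited FPKM values, scaled for exon length and library size. Both tables hold genes called expressed by a criterion not given in the sources used here, nor are the counter and its use of strand. Where exons overlap, reads could therefore be shared: in GENCODE version 44 a readthrough locus covers 68.4% of the exon bases of RNF43 and a same-strand locus 25.3% of those of AXIN2. The readthrough locus had no entry among the counted genes, so its level was not measured. The locus at AXIN2 had a mean count of 3.33. BZRAP1-AS1, on the opposite strand, shares 5.45% of the exon bases of RNF43 and had a mean count of 39. The part of these loci in the counts was not tested.

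Counts were compared with edgeR 4.0.16 (R 4.3.3, TMM factors, glmQLFit and glmQLFTest) on the 6 samples of each comparison, without covariates, over all genes with a count in any of them. Higher and lower mean an adjusted p (Benjamini-Hochberg, all genes tested) of at most 0.05, and a call also needs a fold change of at least 2. Intervals are 95% intervals from the same fit. The samples are biological replicates of 1 cell line. The edgeR p-values and intervals rest on the trend of spread over all genes, not on each gene's own replicates. Alternatives were RLE factors, total counts, filterByExpr, at least 10 counts in every sample, DESeq2 1.42.0, limma 3.58.1 on log2(FPKM + 0.1) and log2(FPKM + 1), all 9 samples in 1 fit, a replicate block, leaving out each replicate and, added after the data were seen, robust quasi-likelihood. The tests were tried on simulated data with planted changes. Every simulated gene had the same dispersion, so the reliance on the trend was not tried there.

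The members, the pathway lists and the rules were chosen with earlier results of these data known. Named were all members, CRLM1, CTNNB1, APC, AXIN1, GSK3B, TCF7L2, LGR4, MYC, CCND1, any listed gene called in a comparison, up to 3 genes per list with the largest change at a mean count of at least 50, and the 3 genes nearest in profile to the member of widest range, of which 1 is not reported here. Positions are from GENCODE version 44 on GRCh38. Tables and figures were made with Python 3.11.15, pandas 2.3.3 and matplotlib 3.10.9.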

Additional observations from a re-analysis of the deposited data

Results flagged for a closer look

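For 4 genes the log2 fold change of CRLM1-OE had opposite signs against the 2 controls, and the controls themselves differed past the threshold. RNF43 was 0.20 higher in Anti than in Ctrl (edgeR adjusted p = 0.00011), with CRLM1-OE at 0.04 against Ctrl and -0.19 against Anti. ZNRF3 was 0.21 higher in Anti than in Ctrl (edgeR adjusted p = 0.0062), with CRLM1-OE at 0.11 and -0.12. PORCN differed between Anti and Ctrl by -0.21 (edgeR adjusted p = 0.0078), with CRLM1-OE at -0.01 and 0.17, and the difference between the controls did not pass with total counts (-0.10, edgeR adjusted p = 0.31), with limma or without Ctrl replicate 1 (-0.18, edgeR adjusted p = 0.06). TCF7L1 differed between Anti and Ctrl by -0.49 (edgeR adjusted p = 2.7e-15), with CRLM1-OE at -0.09 and 0.38. The sign of the difference from Ctrl turned with the processing for PORCN and TCF7L1. A difference between the controls was not limited to these 4 genes. Of 91 tested pathway genes, 13 were higher and 22 lower in Anti than in Ctrl. Among them were BCL9L (0.36), FZD6 (0.42), KREMEN1 (-0.40) and DKK1 (-0.30), for which CRLM1-OE had the same sign against both controls.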

How the results depend on the processing

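AXIN2, NKD1 and TCF7 kept their direction and an adjusted p of at most 0.05 against both controls under every alternative, and so did SP5 against Ctrl. With total counts in place of TMM factors, 5 members were higher than in Ctrl (4 with at least 10 counts in every sample or limma) and 3 were also changed at least 2-fold (AXIN2, NKD1 and SP5), and the median of the members between the controls was 0.24. Limma on log2(FPKM + 0.1) left 1 member lower than in Anti (TCF7, with RNF43 at -0.14 and adjusted p = 0.058) and 1 past 2-fold against Anti, with a median between the controls of 0.23. Limma on log2(FPKM + 1), where the pseudocount exceeds the level of AXIN2, left 1 lower than in Anti and 0 past 2-fold against either control, with a median of 0.23 against Ctrl. With fitted values of members at the limit of detection, a choice made after the data were seen, the median was 0.48 against Anti (LEF1 added, LGR5 having no count there) and 0.02 between the controls (LEF1 and LGR5 added). The causes of these shifts were not tested. Leaving out each replicate gave 1 to 2 members past 2-fold against Ctrl, the second being SP5 without Ctrl replicate 3, and medians of 0.40 to 0.56 against Ctrl, 0.13 to 0.27 against Anti and 0.09 to 0.16 between the controls. SP5 passed against Anti with total counts (0.54, edgeR adjusted p = 0.037), with at least 10 counts in every sample (0.49, edgeR adjusted p = 0.045) and without CRLM1-OE replicate 2 (0.59, edgeR adjusted p = 0.029) or Anti replicate 2 (0.64, edgeR adjusted p = 0.025), where its adjusted p over all alternatives ran from 0.025 to 0.29, and ZNRF3 against Anti without Anti replicate 1 (-0.16).

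Differences near 0 changed sign. For AXIN2 between the controls the log2 fold change was 0.065 with total counts, 0.05 and 0.017 with limma, and -0.085 to 0.027 with a replicate left out. Against Ctrl, PORCN was at 0.13 with total counts, 0.0042 with filterByExpr, 0.014 with at least 10 counts in every sample, 0.10 and 0.094 with limma and -0.044 to 0.023 with a replicate left out. TCF7L1 was at 0.049 with total counts and 0.021 and 0.018 with limma, APC at 0.0089 with total counts, and CSNK1D at -0.013 with all 9 samples in 1 fit and -0.021 to 0.026 with a replicate left out. TCF7L2 against Anti ran from -0.021 to 0.038. None of these passed the test at a setting that changed its sign. Over the pathway genes named by the rule, 33 combinations of gene, comparison and alternative no longer had an adjusted p of at most 0.05 and 13 newly had one, the latter for CSNK1D, BTRC, TCF7L2 and WNT6.

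Replicate numbers are shared by the groups, but samples of equal number did not deviate together (9 correlations over 12941 genes, from -0.0749 to 0.0782). No pairing by number was thus seen in the values. Whether samples of equal number were prepared together is not given in the sources used here. With the replicate number as a block, 3 members were higher and 1 lower than in Ctrl, 2 higher and 2 lower than in Anti, and the medians were 0.49, 0.18 and 0.14, as without it. Depth limits LEF1 and LGR5, which had under 3 counts in every sample, and widens the intervals of SP5.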
